A study of Homo sapiens with 22 samples.

Results

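The genes described here are 34 members of the homologous recombination and Fanconi anemia pathways of DNA repair and were chosen by gene symbol. All 34 were listed in each of 4 deposited tables, among 17391 gene symbols in the SMYD3 knockout table, 59401 in the SMYD3 siRNA table and 57210 in each of the SMYD3 ASO and UHRF1 siRNA tables. All 34 passed the filter on low values in every comparison. By role they are BRCA1 with its partners BARD1, BRIP1 and RBBP8, then the BRCA2 group (BRCA2, PALB2, RAD51AP1, RAD51C, RAD51D, XRCC2, XRCC3, RAD54L, RAD54B), then 8 genes of the Fanconi core complex (FANCA, FANCB, FANCC, FANCE, FANCF, FANCG, FANCL, FANCM), FANCD2 with FANCI, the end-sensing trio MRE11, RAD50 and NBN, the resection and dissolution enzymes EXO1 and BLM, and the checkpoint genes ATM, ATR, CHEK1, CHEK2, TOPBP1 and CLSPN.

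The study measured poly(A) RNA in 22 stranded libraries of HN-6, an established human cell line from a squamous carcinoma of the head and neck. Every culture, controls included, was given human interferon-β at 1000 U/ml during the last 24 h before collection, so no library shows these cells without interferon. SMYD3 encodes a lysine methyltransferase, and 3 means of removing it were used. The SMYD3 knockout line 5-3, which is a single line, was set against parental HN-6 with 3 libraries on each side. The siRNA labelled si1SMYD3 was set against the control siRNA labelled siNC (3 libraries each), and the antisense oligonucleotide ASO 081 against PBS with no control oligonucleotide (2 libraries each). UHRF1, a protein that helps copy DNA methylation at replication, was depleted with the siRNA labelled siUHRF1 against a separate set of siNC libraries (3 each). The siRNA and oligonucleotide exposures lasted 72 h. The study calls its replicates biological, and the labels do not state whether a replicate number marks a shared day. Library numbers in the sample titles alternate between control and treated in the SMYD3 siRNA and ASO series, and not in the others. What that order means is not stated. Each treatment came with its own controls and its own table, so treatment and table cannot be told apart when effects are set side by side, and in bulk RNA fewer cells of a kind and less RNA per cell cannot be told apart either.

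Homologous recombination repairs a broken chromosome by copying the intact sister: broken ends are sensed and trimmed, BRCA1 and BRCA2 prepare the trimmed end, and that end then invades the sister sequence. The Fanconi pathway meets crosslinks between the DNA strands, where a core complex attaches ubiquitin to the FANCD2-FANCI clamp and hands the lesion on to nucleases and recombination. ATM and ATR are the kinases that signal breaks and stalled forks. Many of these genes are transcribed mainly in S and G2 phase, when a sister chromatid exists, while others are transcribed at a steadier level through the cycle.

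The libraries held 24777802 to 62921144 reads in genes, and the fewest reads for any member in any library were 26. SMYD3 transcript was lower in all 3 SMYD3 comparisons (log2 fold changes from -2.52 to -1.79) and UHRF1 fell by 4.85 on the log2 scale with its siRNA. UHRF1 also fell by 1.68 with the SMYD3 siRNA but rose by 0.44 in the knockout and by 0.36 with the ASO, and SMYD3 fell by 0.57 with the UHRF1 siRNA. All 10 squamous markers examined were read in every library, KRT14 at only 11 to 57 reads, and markers of other cell types were read too, as given with the results. Mitochondrially encoded genes took 4.83% to 15.7% of the reads in the knockout table, the parental libraries being the high ones. They took 5.73% to 10.2% in the SMYD3 siRNA table and 0% in the ASO and UHRF1 siRNA tables. The read totals behind the values therefore differ in kind between tables. The knockout result is also given below rescaled to the totals of nuclear genes. That scale replaces the deposited factors per library as well, so the part of mitochondrial genes alone was not tested.

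The UHRF1 siRNA had the widest effect on these genes. Of the 34 members, 29 were called lower (32.6% of all genes tested were) and 3 higher (32% of all genes were), where called means an adjusted p under 0.05 over all genes tested. The median log2 fold change of the members was -1.07, against -0.01 over all 18341 genes tested. The groups did not overlap for 33 members, against 68.4% of all genes, and 64.7% of all genes were called in either direction. All 4 genes of the BRCA1 group, all 9 of the BRCA2 group, both clamp genes, EXO1 and BLM fell. In the core complex 7 of 8 fell, the exception being FANCF, and among the checkpoint genes 4 fell, ATM rose and ATR did not pass the test. The end-sensing trio was split, with RAD50 and NBN higher and MRE11 lower. All 32 calls held in each of 6 fits that left out a library.

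The SMYD3 siRNA lowered a larger share of the members than of all genes. It called 14 of the 34 lower, against 24.4% of all genes. It called 8 of the 34 higher, a share near the 24.2% of all genes. The median was -0.21, against -0.02 over 18967 genes, and 22 members did not overlap between groups, against 57.3% of all genes. The BRCA2 group held 5 lower and 2 higher members, both clamp genes and both resection and dissolution enzymes fell, and no checkpoint gene fell. Of the 22 calls (48.6% of all genes were called in either direction), 17 held in every fit that left out a library. The calls that did not hold were those of RBBP8, FANCG, FANCE, PALB2 and ATM, and without siNC replicate 3 only 5 members were called higher.

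In the knockout line the balance lay the other way. It called 22 members higher, against 42.1% of all genes, and 8 lower, against 42.6% of all genes. The median was 0.46, against -0.02 over 16940 genes, and 30 members did not overlap between groups, against 85.8% of all genes, and 84.7% of all genes were called in either direction, so that a call in this comparison was the rule for genes of any kind. The BRCA2 group rose in 8 of 9 genes, and the checkpoint group in 4 of 6. With values rescaled to nuclear genes only, the median of all genes moved to -0.39, the calls over all genes became 4838 higher and 9669 lower in place of 7134 and 7208, and those of the members 16 higher and 13 lower. With upper quartile factors the median of all genes was -0.31, with 5384 genes higher and 9118 lower, and 17 members higher and 13 lower. On the nuclear scale 4 genes of the BRCA2 group stayed higher. On that scale RAD51AP1 was called lower (-0.19), XRCC2 (-0.10), FANCB (-0.030) and FANCD2 (-0.093) changed sign without passing the test, RAD51C and RAD54B lost their calls, and BARD1, BRIP1, FANCA and BLM were called lower, while BRCA1, BRCA2, PALB2, RAD50, NBN, EXO1, CHEK1 and CLSPN stayed higher and FANCL, ATM, CHEK2, XRCC3 and MRE11 stayed lower.

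The ASO had the narrowest effect. It called 8 members higher, against 11.4% of all genes, and 2 lower (FANCC and ATM), against 10.3% of all genes. The median was 0.06, against -0.00 over 18228 genes, and 20 members did not overlap between groups, against 62% of all genes. With 2 libraries on each side and 21.7% of all genes called in either direction, only 5 of the 10 calls, BARD1, RBBP8, RAD51AP1, NBN and CLSPN, held in each of 4 fits that left out a library. The calls of PALB2, FANCA, FANCL, FANCC and ATM were each lost in at least 2 of those fits and with DESeq2, and all 5 changes were under 0.30 in size.

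**Figure D1:**
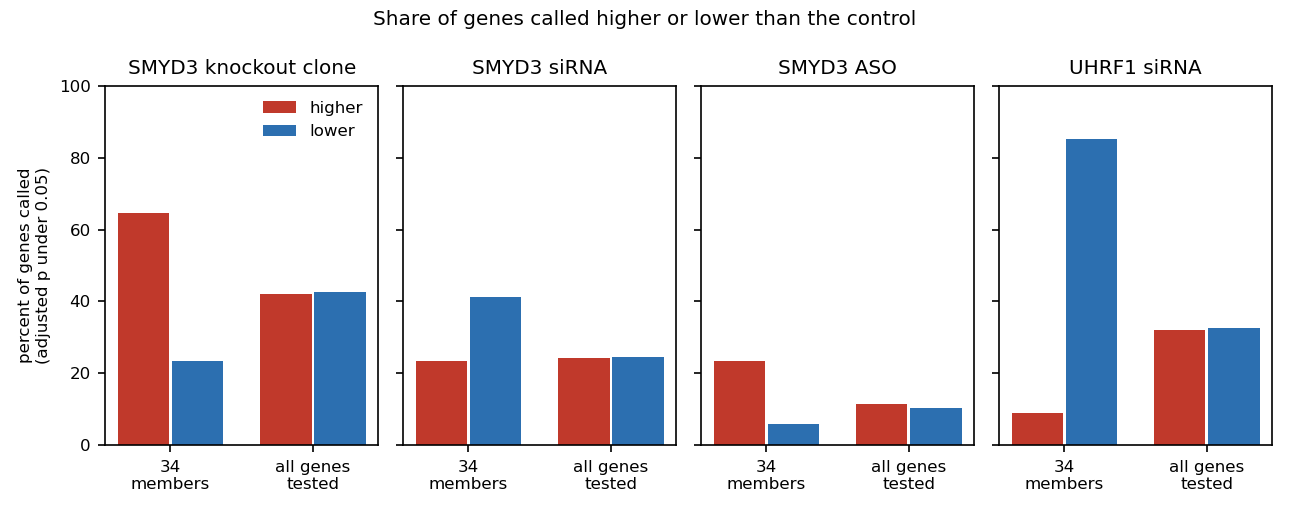
Percent of genes called higher (red) or lower (blue) than the control at an adjusted p under 0.05, for the 34 members and for all genes tested, in each of the 4 comparisons. The blue bar of the members stands far above that of all genes with the UHRF1 siRNA (29 of 34 members), and the red bar stands above it in the knockout (22 of 34 members).

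**Figure D2:**
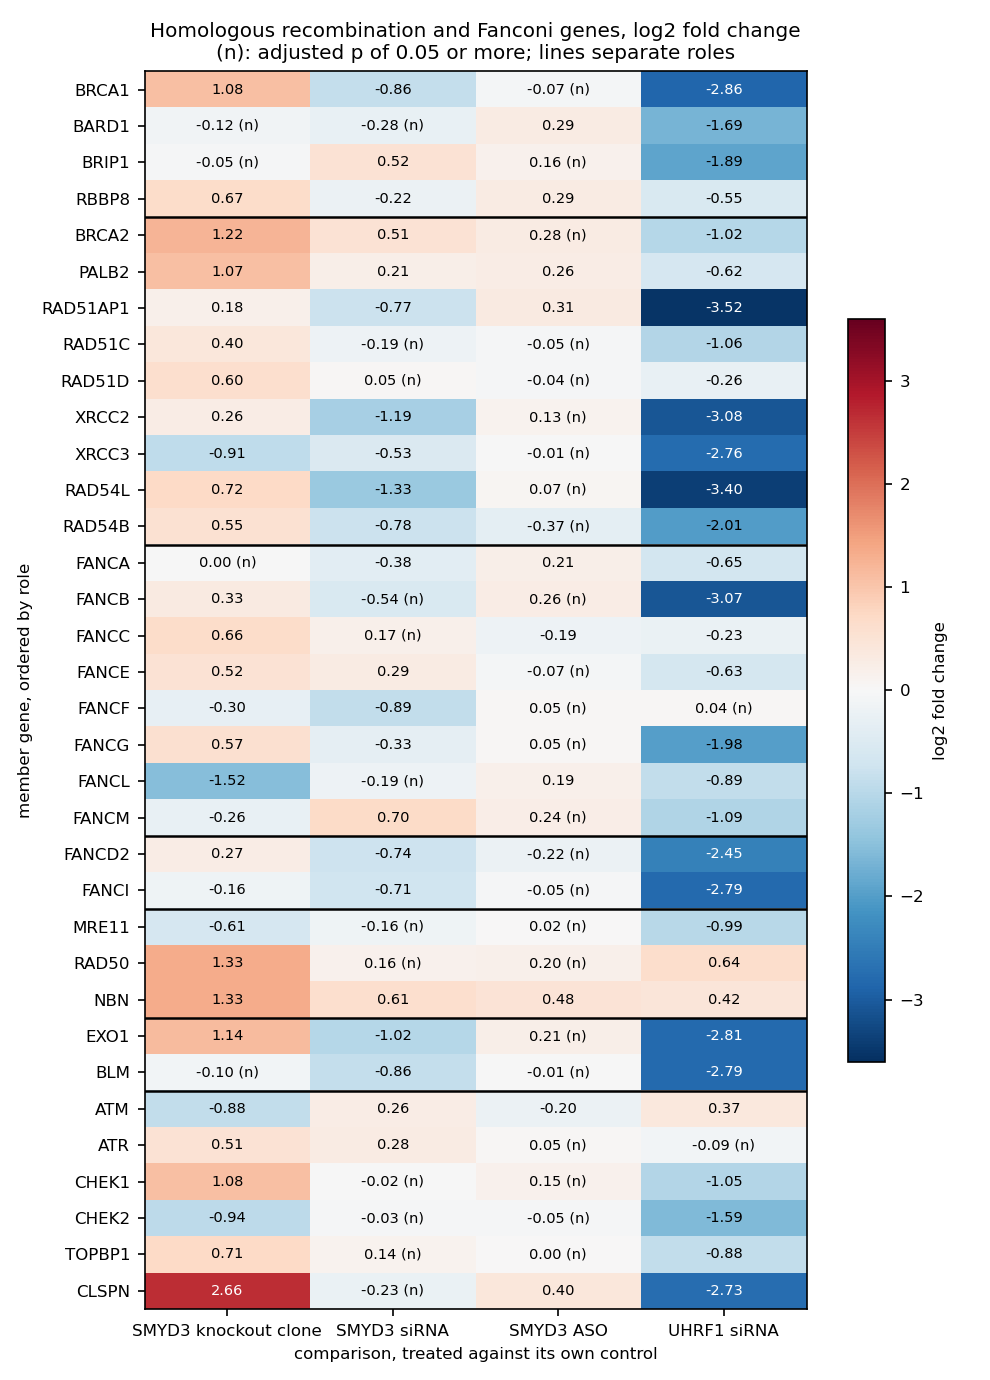
Log2 fold change of each member (rows, ordered by role) in each comparison (columns), treated against its own control, with (n) where the adjusted p was 0.05 or more. The right-hand column is blue from top to bottom except for FANCF, RAD50, NBN and ATM, and NBN is the only row that is red in all 4 columns with every call made.

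Across the 4 comparisons NBN was the only member called higher in all (1.66% of the 15516 genes tested in all 4 were), no member was called lower in all (0.806% of those genes were), and 25 members were called higher in at least 1 comparison and lower in another, against 46% of those genes. Of 34 members, 9 fell with the SMYD3 siRNA and were called higher in the knockout, against 9.69% of the 16046 genes tested in both. Another 2 rose with the siRNA and were called lower in the knockout, no larger a share than the 8.05% of those genes. On the nuclear scale of the knockout the 9 became 5 (BRCA1, EXO1, FANCG, RAD54L and RBBP8) and the 2 became 3 (ATM, BRIP1 and FANCM). With upper quartile factors they became 6 and 3. The shares of all genes under these settings are not given here, so the changed counts cannot be set against them.

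BRCA1, an E3 ubiquitin ligase that directs broken ends towards recombination, went in opposite directions under different depletions. In the UHRF1 siRNA table it measured 95.8, 97.4 and 97.7 CPM in the control libraries and 12.3, 12.5 and 13.2 with the siRNA. CPM is the reads of a gene scaled to a fixed total of reads in all genes of the library. The log2 fold change was -2.86 ± 0.06 (standard error, SE, derived as given in the processing section, adjusted p = 6.42e-41). The 3 siRNA libraries lay close together and far below all controls. In the SMYD3 siRNA table it measured 20.9, 14.1 and 15 CPM in siNC and 8.9, 8.18 and 8.21 with the siRNA (-0.86 ± 0.12, adjusted p = 5.32e-05). All siRNA libraries were again lower, with siNC replicate 1 the highest control. In the knockout table, which holds gene counts divided by a factor per library (normalized counts), it measured 1649, 1926 and 1804 in parental cells and 3732, 4041 and 3612 in the knockout (1.08 ± 0.06, adjusted p = 9.39e-11), so that every knockout library was above every parental one. In the ASO table it measured 87.1 and 89.4 CPM with PBS and 76.6 and 84.2 with the ASO (-0.07 ± 0.06, adjusted p = 0.48). Log2 fold changes of the count tables follow TMM scaling and can differ from the ratio of the CPM values.

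The partners of BRCA1 differed among themselves. BARD1, which forms the ligase with BRCA1, measured 43.5 and 43.4 CPM with PBS and 50.6 and 51.1 with the ASO, a rise of 0.29 ± 0.06 (adjusted p = 0.00362) without overlap, and 44.9, 44.7 and 49.1 CPM against 13.5, 13.7 and 13.9 with the UHRF1 siRNA, a fall of 1.69 on the log2 scale. BRIP1, a helicase that binds BRCA1, fell with the UHRF1 siRNA, from 49.6, 51.3 and 50.4 CPM to 12.8, 13.8 and 12.1. With the SMYD3 siRNA it measured 23, 18.7 and 18.4 CPM against 31.9, 25.3 and 22 and was called higher (0.52 ± 0.11, adjusted p = 0.00159), although siNC replicate 1 lay above the lowest siRNA library. RBBP8, which encodes the end-trimming cofactor CtIP, was called in all 4 comparisons, higher in 2 and lower in 2. It measured 1964, 2140.3 and 1973 normalized counts in parental cells and 3111, 3408 and 3167 in the knockout (0.67 ± 0.05), and 104, 96.6 and 108 CPM against 67.7, 67.6 and 65.6 with the UHRF1 siRNA (-0.55 ± 0.05). Its rise with the ASO, from 93.1 and 94 to 105 and 114 CPM (0.29 ± 0.06, adjusted p = 0.00494), and its fall with the SMYD3 siRNA, from 56.3, 45.8 and 50.4 to 41.5, 38.7 and 39.4 CPM (-0.22 ± 0.08, adjusted p = 0.0323), were small, and the latter call was lost without siNC replicate 1 or 3 or without siRNA replicate 2 or 3.

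**Figure D3:**
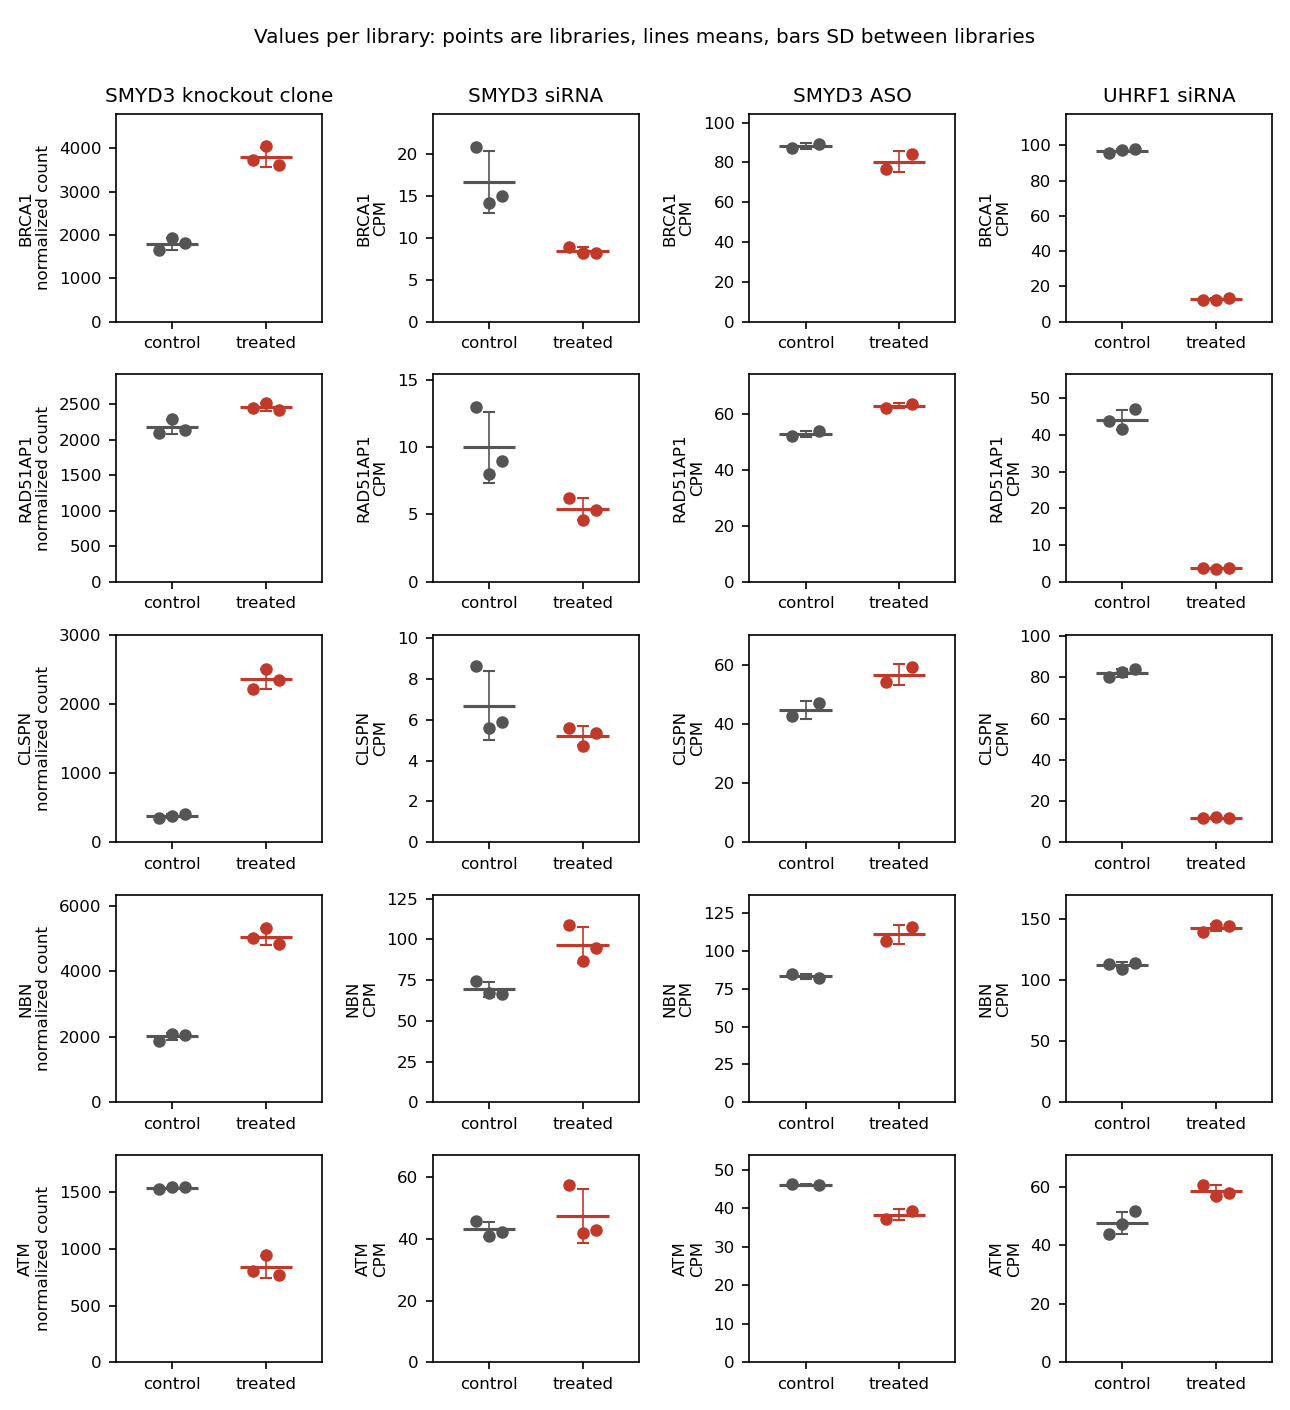
Values of BRCA1, RAD51AP1, CLSPN, NBN and ATM in every library, in normalized counts for the knockout table and in CPM for the others, with the mean and SD of each group. NBN lies above its controls in all 4 columns, while BRCA1 is higher in the knockout (3612 to 4041 against 1649 to 1926) and lower with both siRNAs.

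BRCA2, a central factor of recombination, and PALB2, which joins it to BRCA1, rose in the knockout and fell with the UHRF1 siRNA. BRCA2 measured 566, 583 and 558 normalized counts in parental cells and 1211, 1526 and 1251 in the knockout (1.22 ± 0.08, adjusted p = 6.67e-10). With the SMYD3 siRNA it measured 10.6, 7.95 and 7.78 CPM in siNC and 13.1, 10.6 and 10.6 with the siRNA (0.51 ± 0.12, adjusted p = 0.00249), the highest control just under the lowest siRNA library. The knockout libraries stood apart from their controls by far more than they differed from each other, whereas with the siRNA the groups nearly met. With the ASO it measured 24.3 and 25.6 CPM against 25.2 and 32.7 (0.28 ± 0.11, adjusted p = 0.0774), overlapping between groups, and it passed the test without PBS replicate 2 (0.34) or ASO replicate 1 (0.47) and with no filter on low counts. It fell with the UHRF1 siRNA, where it measured 51.1, 55.9 and 59.1 CPM against 25.7, 25.2 and 27.3 (-1.02 ± 0.06, adjusted p = 5.03e-21). PALB2 was called higher in 3 comparisons and lower in 1. It rose in the knockout, from 540.0, 537 and 515 normalized counts to 1051, 1206 and 1097 (1.07 ± 0.06), and measured 18.5 and 17.8 CPM with PBS against 20.1 and 21.4 with the ASO (0.26 ± 0.08, adjusted p = 0.0323). Its call with the SMYD3 siRNA (0.21 ± 0.08, adjusted p = 0.0445) was lost in each of the 6 fits that left out a library.

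The remaining genes of the BRCA2 group held the deepest falls of all members with the UHRF1 siRNA. RAD51AP1, which promotes strand pairing, went from 43.9, 41.6 and 46.9 CPM to 3.66, 3.44 and 3.85, a fall of 3.52 on the log2 scale (11.5-fold; SE 0.08, adjusted p = 4.54e-39). RAD54L, the motor protein RAD54, went from 55, 58.4 and 54 CPM to 5.12, 5.05 and 4.89 (10.6-fold lower, SE of the log2 value 0.07). XRCC2, a strand exchange cofactor, went from 48.9, 53.7 and 51.8 CPM to 5.24, 5.64 and 6.46 (8.46-fold lower, SE 0.08 on the log2 scale). In each of the 3 genes the siRNA libraries lay together at about the same low level, with no overlap. The same 3 genes also fell with the SMYD3 siRNA, by less. RAD54L measured 10.8, 6.35 and 6.56 CPM in siNC against 2.27, 2.97 and 3.34 (-1.33 ± 0.22, adjusted p = 0.000492). XRCC2 measured 7.25, 4.62 and 6.01 against 2.82, 2.21 and 2.22 (-1.19 ± 0.16), and RAD51AP1 13, 7.98 and 9 against 6.22, 4.62 and 5.34 (-0.77 ± 0.16). Replicate 1 of siNC was the highest library for all 3 genes. In the knockout they were called higher, RAD54L from 1057, 1083 and 1072 to 1799, 1692 and 1812 normalized counts (0.72 ± 0.05), XRCC2 from 969, 1076 and 1018 to 1219, 1231 and 1220.4 (0.26 ± 0.05) and RAD51AP1 from 2096, 2289.9 and 2141 to 2453, 2517 and 2415 (0.18 ± 0.04). The direction of the latter pair turned when values were rescaled to nuclear genes or to upper quartiles, the values on the former scale being those given above. With the ASO only RAD51AP1 passed the test, at 52.2 and 53.7 CPM with PBS and 62.3 and 63.6 with the ASO (0.31 ± 0.06, adjusted p = 0.0023).

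RAD51C, RAD51D, XRCC3 and RAD54B, which also assist strand exchange, fell by less with the UHRF1 siRNA. RAD51C measured 31.2, 30.7 and 31.7 CPM against 13.9, 14.4 and 14.4 with the UHRF1 siRNA and 1113, 1067 and 956 normalized counts against 1391, 1355 and 1376 in the knockout, opposite directions without overlap in either. RAD51D fell by only 0.26 on the log2 scale with the UHRF1 siRNA (22.7, 20.6 and 21.3 CPM against 16.2, 17.1 and 18.2) and rose by 0.60 in the knockout (752, 807 and 727 normalized counts against 1169, 1147 and 1140.3). XRCC3 was lower in 3 comparisons, with log2 fold changes of -0.91 in the knockout, -0.53 with the SMYD3 siRNA and -2.76 with the UHRF1 siRNA, and did not pass the test with the ASO (-0.01 ± 0.06). Of its annotated exon bases 76.7% lie opposite exons of another gene, and the strand setting of the counting is not given in the sources used here, so reads of the overlapping genes cannot be told apart. RAD54B measured 446, 587 and 491 normalized counts in parental cells against 744, 757 and 711 in the knockout, and 2.52, 2.73 and 2.97 CPM against 0.504, 0.708 and 0.725 with the UHRF1 siRNA. It shares 59.1% of its exon bases with FSBP on the same strand, so its values are uncertain.

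Promoter sequences are shown for the 4 members that fell most with the UHRF1 siRNA and for ATM, which rose. They are the 250 bases before the annotated RefSeq start on GRCh38.p14, 5′ to 3′ on the strand of the gene. RAD51AP1 lies on the plus strand at chr12:4538640-4538889, RAD54L on the plus strand at chr1:46247438-46247687, XRCC2 on the minus strand at chr7:152676142-152676391, FANCB on the minus strand at chrX:14873070-14873319 and ATM on the plus strand at chr11:108222817-108223066. Capitals mark matches, on either strand, to TTCCCGC or its variants TTGGCGC and TTCGCGC (letters of E2F-type elements, the sites of S-phase transcription factors), to CCAAT (the box bound by NF-Y) and to TTTGAA (the cell cycle homology region type), so GCGGGAA and ATTGG are the reverse strand of TTCCCGC and CCAAT.
RAD51AP1: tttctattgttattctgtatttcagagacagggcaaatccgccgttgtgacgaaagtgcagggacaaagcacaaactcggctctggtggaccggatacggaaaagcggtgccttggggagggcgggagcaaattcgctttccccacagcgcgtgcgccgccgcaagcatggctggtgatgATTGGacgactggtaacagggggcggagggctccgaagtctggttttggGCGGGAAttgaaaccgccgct
RAD54L: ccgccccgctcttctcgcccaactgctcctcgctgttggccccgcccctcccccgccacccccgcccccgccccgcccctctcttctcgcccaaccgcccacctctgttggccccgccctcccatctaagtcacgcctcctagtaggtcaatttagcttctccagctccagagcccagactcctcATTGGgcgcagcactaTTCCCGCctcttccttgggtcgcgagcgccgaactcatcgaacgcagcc
XRCC2: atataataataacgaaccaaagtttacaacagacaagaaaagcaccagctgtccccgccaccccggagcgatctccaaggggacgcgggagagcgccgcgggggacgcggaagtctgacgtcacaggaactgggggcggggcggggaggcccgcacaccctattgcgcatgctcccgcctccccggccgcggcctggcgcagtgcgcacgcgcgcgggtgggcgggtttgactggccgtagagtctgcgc
FANCB: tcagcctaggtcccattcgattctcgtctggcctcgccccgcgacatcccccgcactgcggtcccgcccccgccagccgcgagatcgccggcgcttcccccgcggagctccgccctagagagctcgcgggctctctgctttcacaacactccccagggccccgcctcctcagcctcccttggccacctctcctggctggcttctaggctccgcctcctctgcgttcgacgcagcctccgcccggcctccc
ATM: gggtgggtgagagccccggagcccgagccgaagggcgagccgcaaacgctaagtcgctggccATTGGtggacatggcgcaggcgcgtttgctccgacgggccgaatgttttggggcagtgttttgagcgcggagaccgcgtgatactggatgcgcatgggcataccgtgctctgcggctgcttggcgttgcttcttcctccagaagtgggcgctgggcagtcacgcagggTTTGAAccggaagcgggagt
RAD54L and RAD51AP1 each hold a TTCCCGC match in this window, beginning 49 and 21 bases before the start, and each holds a CCAAT match. XRCC2 and FANCB hold no match of any kind here, and XRCC2 has a TTCCCGC match that begins 21 bases after the start. ATM holds none of the E2F-type letters here, a CCAAT match 188 bases before the start and a TTTGAA match 20 bases before it. RefSeq promoters of 300 bases (250 before to 50 after the start) were matched for 31 of the 34 members (not FANCI, NBN and RAD54B), with 41 starts. Of these 41, 53.7% held an E2F-type match, against 11.0% of 35116 promoters of that length, while CCAAT was in 46.3% against 34.6% and TTTGAA in 7.32% against 15.2%. With the UHRF1 siRNA the 19 members with an E2F-type match in a promoter had a median log2 fold change of -1.98 (18 called lower) and the 12 without one a median of -1.002 (9 called lower). In the knockout the same split gave medians of 0.27 and 0.46, with the SMYD3 siRNA -0.38 and 0.07, and with the ASO 0.05 and 0.17. A match describes letters only.

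The Fanconi core complex, which carries the ubiquitin ligase of the pathway, was mixed. FANCB, a core subunit on the X chromosome, fell most with the UHRF1 siRNA, from 9.29, 9.36 and 9.28 CPM to 1.11, 0.79 and 1.27 (-3.07 ± 0.15, adjusted p = 4.47e-25), with all siRNA libraries far below the controls. FANCG, another subunit, went from 65.6, 61.6 and 59 CPM to 16, 14.3 and 14.5 (-1.98 ± 0.06). FANCF, the adaptor of the complex, stayed within its control range there, at 9.92, 12 and 11.9 CPM against 10.5, 11.6 and 10.9 (0.04 ± 0.09, adjusted p = 0.747). It was nevertheless among the largest changes with the SMYD3 siRNA, where it measured 21.9, 21.7 and 20.7 CPM in siNC and 11.7, 9.75 and 10.2 with the siRNA (-0.89 ± 0.09, adjusted p = 1.27e-06) without overlap. FANCL, the ligase subunit itself, had the largest fall of all members in the knockout, from 2597, 2762 and 2537 normalized counts to 902, 931 and 914 (-1.52 ± 0.05, adjusted p = 2.14e-13). With the ASO it measured 64.2 and 59.3 CPM against 69.5 and 64.9 (0.19 ± 0.06, adjusted p = 0.0396), groups that barely separated.

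The remaining core genes were called in opposite directions in different comparisons. FANCC measured 1101, 1198 and 1185 normalized counts in parental cells against 1821, 1821 and 1854 in the knockout (0.66 ± 0.05), and 69.1 and 69.2 CPM with PBS against 58 and 57.7 with the ASO (-0.19 ± 0.06). FANCM, the motor protein that anchors the complex to DNA, measured 4.74, 3.67 and 4.6 CPM in siNC against 7.32, 6.47 and 5.68 with the SMYD3 siRNA (0.70 ± 0.13, adjusted p = 0.000365) and 12.7, 14.3 and 15.7 CPM against 6.74, 6.17 and 6.24 with the UHRF1 siRNA (-1.09 ± 0.10). Both FANCM groups separated fully, in opposite directions, whereas in the knockout it overlapped (249, 297 and 311 normalized counts against 249, 259 and 207) and its call (-0.26 ± 0.11, adjusted p = 0.0371) was lost without parental replicate 2 (-0.23) or 3 (-0.20) or knockout replicate 3 (-0.16). FANCE measured 12.4, 11.5 and 10.3 CPM in siNC against 12.5, 12.6 and 12.9 with the SMYD3 siRNA (0.29 ± 0.09) and 13.6, 13.9 and 13.7 against 8.47, 8.54 and 8.32 with the UHRF1 siRNA (-0.63 ± 0.09); the former call was lost without siNC replicate 3 (0.22) or siRNA replicate 3 (0.28). FANCG with the SMYD3 siRNA measured 17.9, 15.7 and 14.6 CPM against 11.9, 11.9 and 11.3 (-0.33 ± 0.09), and this call was lost without siRNA replicate 3. FANCA measured 31.4, 30.6 and 26.4 CPM in siNC against 19.7, 21.3 and 21.2 with the SMYD3 siRNA (-0.38 ± 0.09) and 72.7 and 81.5 CPM with PBS against 82.4 and 88 with the ASO (0.21 ± 0.07). Its ASO call was lost without PBS replicate 1 (0.12) or ASO replicate 2 (0.15), and its groups there differed by less than 1 CPM at their closest.

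FANCD2 and FANCI, the clamp that is ubiquitinated in crosslink repair, fell together with both siRNAs and parted in the knockout. With the UHRF1 siRNA FANCI went from 173, 179 and 179 CPM to 25.5, 23.4 and 24.2 (-2.79 ± 0.05, adjusted p = 6.03e-42). FANCD2 went from 42.1, 48.3 and 49.2 CPM to 8.77, 8.87 and 6.74 (-2.45 ± 0.08, adjusted p = 1.22e-28). Neither gene had a siRNA library near a control. With the SMYD3 siRNA FANCI measured 44.9, 34 and 36.1 CPM in siNC against 21.1, 22.4 and 20.9 (-0.71 ± 0.10, adjusted p = 3.41e-05), and FANCD2 11.7, 8.97 and 7.91 against 4.69, 4.8 and 6 (-0.74 ± 0.14, adjusted p = 0.000636). Both fell by nearly the same amount, and siNC replicate 1 was the highest for both. In the knockout FANCI measured 5299, 6041 and 5856 normalized counts in parental cells against 5166, 5284 and 4943 (-0.16 ± 0.05, adjusted p = 0.00584), and FANCD2 1042, 1163 and 1055 against 1304, 1350.3 and 1276 (0.27 ± 0.05, adjusted p = 0.000284). These knockout shifts were small beside those of BRCA1 or BRCA2, and that of FANCD2 was -0.093 on the nuclear scale. With the ASO FANCI measured 177 and 189 CPM with PBS against 159 and 179.8 (-0.05 ± 0.07, adjusted p = 0.665), and FANCD2 48.2 and 54.5 against 40.8 and 43.7 (-0.22 ± 0.07, adjusted p = 0.0558). This value of FANCD2 passed the test without PBS replicate 1 (-0.31) or ASO replicate 2 (-0.27), with upper quartile factors and with no filter on low counts.

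NBN, the regulatory subunit of the end-sensing complex, was the only member called higher in all 4 comparisons. It measured 1885, 2091 and 2066 normalized counts in parental cells against 5016, 5339 and 4828 in the knockout (1.33 ± 0.05, adjusted p = 1.51e-12). With the SMYD3 siRNA it measured 74.6, 66.9 and 66.6 CPM in siNC against 109, 86.9 and 94.6 (0.61 ± 0.08, adjusted p = 2.28e-05). With the ASO it measured 84.7 and 82.2 CPM with PBS against 107 and 116 (0.48 ± 0.06, adjusted p = 0.000148). Every treated library was above every control in these 3 comparisons, and the same held with the UHRF1 siRNA, at 113, 109 and 113 CPM against 139, 145 and 144 (0.42 ± 0.05, adjusted p = 5.27e-11). No fit that left out a library or changed a setting lost any of the 4 calls. Of its partners, MRE11, the nuclease of the complex, did not follow it. MRE11 was lower in the knockout (-0.61 ± 0.06) and with the UHRF1 siRNA (-0.99 ± 0.06) and did not pass the test in the other comparisons.

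RAD50, the ATPase of the complex, was called higher in the knockout, from 998, 914 and 899.6 normalized counts to 2349, 2541 and 2192 (1.33 ± 0.06, adjusted p = 1.32e-11), and with the UHRF1 siRNA, from 3.54, 2.75 and 2.24 CPM to 3.73, 4.31 and 4.64 (0.64 ± 0.15, adjusted p = 0.00023). The latter rests on 134 to 282 reads a library. RAD50 shares 79.7% of its exon bases on the same strand with the annotated gene AC116366.3, and in the ASO table it had 85 to 95 reads against 1690 to 2777 in the SMYD3 siRNA table, where AC116366.3 has no line. How shared reads were counted is not given in the sources used here, so the RAD50 levels of different tables cannot be compared and its changes are uncertain.

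EXO1, the long-range resection exonuclease, went from 39.1, 39.4 and 38.1 CPM to 4.83, 5.5 and 5.48 with the UHRF1 siRNA (-2.81 ± 0.08, adjusted p = 1.63e-35) and from 6.9, 5.21 and 4.8 to 2.21, 2.82 and 2.58 CPM with the SMYD3 siRNA (-1.02 ± 0.16, adjusted p = 8.35e-05). In the knockout it rose from 655, 758 and 681 to 1483, 1626 and 1509 normalized counts (1.14 ± 0.06, adjusted p = 1.37e-10). None of these groups overlapped, and the knockout and siRNA changes were opposite. BLM, the helicase that dissolves joined molecules, fell with both siRNAs, from 36.1, 34.4 and 35.9 CPM to 4.6, 4.31 and 5.7 with that against UHRF1 (-2.79 ± 0.08) and from 8.2, 6.35 and 6.67 to 3.93, 3.61 and 3.19 with that against SMYD3 (-0.86 ± 0.13, adjusted p = 5.36e-05). In the knockout BLM did not pass the test (-0.10 ± 0.06, adjusted p = 0.104), but it did without parental replicate 1 (-0.14), with edgeR on the recovered reads (-0.13), with upper quartile factors (-0.38) and on the nuclear scale (-0.46). With the ASO neither gene passed it, although EXO1 did as higher without PBS replicate 2 (0.38) or ASO replicate 1 (0.31) and with no filter on low counts.

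ATM, the kinase that answers double-strand breaks, ran against most other members. It rose with the UHRF1 siRNA, from 44, 47.2 and 51.7 CPM to 60.7, 57 and 57.9 (0.37 ± 0.06, adjusted p = 1.12e-07), all siRNA libraries lying above the controls. In the knockout it fell, from 1522, 1542 and 1539 normalized counts to 804, 945 and 767 (-0.88 ± 0.07, adjusted p = 8.33e-09), again without overlap. With the ASO it measured 46.3 and 45.9 CPM with PBS against 37.3 and 39.4 (-0.20 ± 0.06, adjusted p = 0.0378), a call lost without PBS replicate 1 or 2 or ASO replicate 1. With the SMYD3 siRNA it measured 45.7, 41 and 42.3 CPM in siNC against 57.4, 41.8 and 42.8 (0.26 ± 0.10, adjusted p = 0.0371). There the siRNA libraries 2 and 3 lay inside the control range, and without siRNA replicate 1 the value was 0.15 and the call was lost, as it was without siNC replicate 2 or 3.

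ATR, the kinase that answers stalled forks, differed by at most 0.51 on the log2 scale in any comparison. In the knockout it measured 2321, 2391 and 2244 normalized counts in parental cells against 3225, 3546 and 3171 (0.51 ± 0.05, adjusted p = 8.54e-08), without overlap. With the SMYD3 siRNA it measured 61, 63 and 66.1 CPM against 78.6, 65.9 and 67.7 (0.28 ± 0.08, adjusted p = 0.00698), overlapping at the edge. With the ASO it measured 70 and 71.3 CPM with PBS against 67 and 73 (0.05 ± 0.06, adjusted p = 0.596). Those ASO libraries fell on either side of the controls. With the UHRF1 siRNA it measured 85.7, 90.7 and 92.7 CPM against 84.5, 74.5 and 81.4 (-0.09 ± 0.05, adjusted p = 0.133); without siNC replicate 1 or siRNA replicate 1 the value was -0.13 and passed the test.

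CLSPN, which encodes Claspin, the adaptor that lets ATR activate CHK1, had the largest change of all members in the knockout, from 347, 372 and 404 normalized counts to 2225, 2511 and 2357 (2.66 ± 0.07, adjusted p = 1.9e-14), 6.31-fold higher. It went the other way by nearly as much with the UHRF1 siRNA, from 80.4, 82.4 and 83.9 CPM to 11.4, 12.2 and 11.7 (-2.73 ± 0.06, adjusted p = 1.11e-39). With the ASO it rose from 42.6 and 47 CPM to 54.1 and 59.1 (0.40 ± 0.07, adjusted p = 0.00184), and with the SMYD3 siRNA it did not pass the test (-0.23 ± 0.15, adjusted p = 0.205). CHEK1, which encodes the CHK1 kinase, showed the same pair of opposite calls, at 707, 787 and 767 normalized counts against 1622, 1639 and 1528 in the knockout and 32.1, 30.4 and 31.5 CPM against 14.2, 14.8 and 14.3 with the UHRF1 siRNA. TOPBP1, the activator of ATR, did too, at 2843, 3052 and 2956 normalized counts against 4778, 5326 and 4455 and 152, 157 and 162 CPM against 83.9, 80 and 78.7. CHEK2, which encodes the kinase CHK2 downstream of ATM, was lower in both, with log2 fold changes of -0.94 in the knockout and -1.59 with the UHRF1 siRNA, and did not pass the test with the SMYD3 siRNA or the ASO.

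The effects themselves were then set against each other, each against its own controls, so that no libraries were shared between the effects of a pair. Most members were lower with the UHRF1 siRNA than with the SMYD3 siRNA, each relative to its own siNC: the difference of log2 fold changes was above 0 for 30 members, against 25.2% of 21005 genes, and below 0 for 2 (FANCF and RAD50), against 23.8% of genes, with 49% of genes on either side. It was largest for RAD51AP1 (2.76 ± 0.17), FANCB (2.52 ± 0.29), CLSPN (2.50 ± 0.14) and BRIP1 (2.42 ± 0.13). FANCF differed by -0.93 ± 0.12 (adjusted p = 1.94e-07). Of the siRNAs, it was called lower with that against SMYD3 and not with that against UHRF1. For NBN (0.19 ± 0.09, adjusted p = 0.0767) and ATM (-0.11 ± 0.11, adjusted p = 0.446) the difference did not pass the test, although that of NBN did without siNC replicate 1 or siRNA replicate 2 of the SMYD3 table (0.22 and 0.24) and that of ATM without siRNA replicate 1 of that table (-0.24).

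The SMYD3 siRNA and the ASO, which both target SMYD3 for 72 h, differed for 21 members. The difference was below 0 for 17, against 16.6% of genes, and above 0 for 4 (FANCC, FANCE, FANCM and ATM), against 15.5% of genes, with 32.2% of genes on either side. It was largest for RAD54L (-1.40 ± 0.23, adjusted p = 8.17e-05), XRCC2 (-1.33 ± 0.18), EXO1 (-1.23 ± 0.18) and RAD51AP1 (-1.08 ± 0.17). NBN (0.12 ± 0.10) and PALB2 (-0.05 ± 0.12) did not pass this test. The 4 calls above 0 were fragile, falling to 1 without PBS replicate 2 or ASO replicate 1 and to 2 without siNC replicate 3 or PBS replicate 1.

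The knockout and the SMYD3 siRNA, compared on the log2(CPM + 1) scale, differed for 31 members, above 0 for 24 (35.6% of 16836 genes were) and below 0 for 7 (38.9% of genes were), and 74.5% of genes differed in either direction. CLSPN (2.66 ± 0.15), EXO1 (1.81 ± 0.14), BRCA1 (1.76 ± 0.14) and RAD54L (1.69 ± 0.19) had the largest differences above 0, and FANCL (-1.38 ± 0.11), ATM (-1.16 ± 0.13) and CHEK2 (-0.95 ± 0.10) the largest below. The knockout and the ASO differed for 27 members, above 0 for 18 (30.7% of genes were) and below 0 for 9 (39.9% of genes were, and 70.5% in either direction), with CLSPN (2.04 ± 0.17) and FANCL (-1.80 ± 0.12) at the extremes. With CPM taken over nuclear genes only, the latter counts became 13 and 13. The shares of all genes on that scale are not given here, so these counts cannot be set against them.

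**Figure D4:**
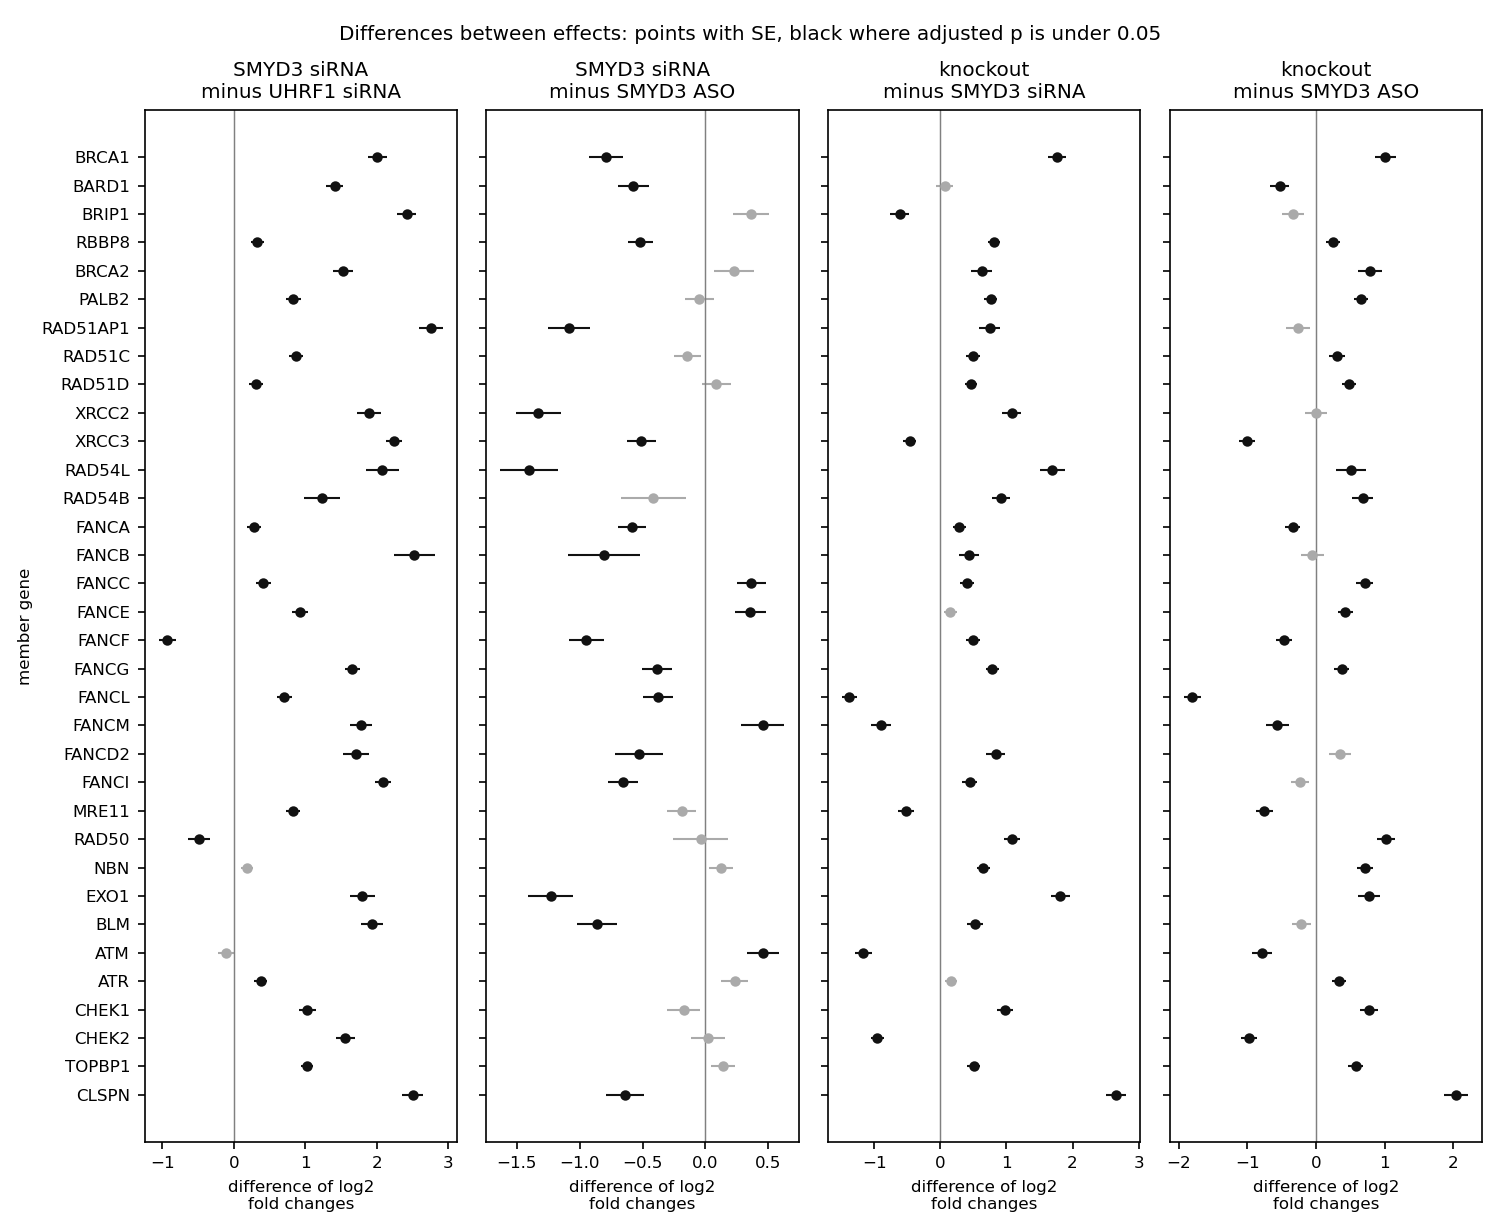
Difference between the log2 fold changes of 2 comparisons for each member (points with SE), black where the adjusted p was under 0.05 and grey where not. Points lie mostly to the right for the SMYD3 siRNA minus the UHRF1 siRNA (30 of 34 above 0) and mostly to the left for the SMYD3 siRNA minus the ASO (17 of 34 below 0).

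Other genes of the same pathways moved with the members in part. Of all genes tested, 32.6% fell and 32% rose with the UHRF1 siRNA and 24.4% and 24.2% with the SMYD3 siRNA. In the knockout 42.6% fell and 42.1% rose, and with the ASO 10.3% and 11.4%. Several counts of the lists here and below lie near these shares, as do those of strand exchange genes in the knockout. Of 15 further strand exchange genes, 9 fell and 5 rose with the UHRF1 siRNA, 8 fell and 4 rose with the SMYD3 siRNA, 7 fell and 7 rose in the knockout, and 1 fell and 1 rose with the ASO. Within that list MND1, a cofactor of strand exchange, fell most with the UHRF1 siRNA (log2 fold change -3.58) and with the SMYD3 siRNA (-1.74). Of 14 further Fanconi pathway genes, 9 fell and 3 rose with the UHRF1 siRNA, 3 fell and 4 rose with the SMYD3 siRNA, 3 fell and 8 rose in the knockout, and 1 fell and 1 rose with the ASO. UBE2T, the E2 enzyme that works with FANCL, fell most with the UHRF1 siRNA (80.6 ± 4.97 to 10.2 ± 0.91 CPM, mean and SD between libraries) and with the SMYD3 siRNA (20.6 ± 2.01 to 7.70 ± 0.43 CPM). USP1, which removes the ubiquitin from the clamp, rose most in the knockout (2434 ± 80.0 to 5968 ± 231 normalized counts) and with the ASO (109 ± 8.19 to 131 ± 8.01 CPM).

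Of 11 resolvase, dissolvase and nuclease genes, 7 fell and 2 rose with the UHRF1 siRNA, 5 fell and 1 rose with the SMYD3 siRNA, 6 fell and 4 rose in the knockout, and 1 rose with the ASO. TOP3A, the topoisomerase partner of BLM, rose most in the knockout (1013 ± 18.3 to 2886 ± 74.6 normalized counts) and with the SMYD3 siRNA (31.6 ± 2.56 to 38.6 ± 1.22 CPM), and RECQL4, another RecQ helicase, fell most with the UHRF1 siRNA (96.5 ± 6.86 to 12.6 ± 0.59 CPM). Of 9 BRCA1-A complex and chromatin ubiquitin genes, 4 fell and 1 rose with the UHRF1 siRNA, 5 fell and 1 rose with the SMYD3 siRNA, 1 fell and 7 rose in the knockout, and 1 rose with the ASO. H2AX, the histone variant that marks breaks, was the largest fall of that list in 3 comparisons, by 2.55 on the log2 scale with the UHRF1 siRNA, 0.93 with the SMYD3 siRNA and 1.09 in the knockout. Of 13 clamp loader, single-strand binding and fork protection genes, 9 fell and 3 rose with the UHRF1 siRNA, 5 fell and 2 rose with the SMYD3 siRNA (12 tested), 3 fell and 8 rose in the knockout, and 1 fell and 4 rose with the ASO. Of 17 end joining and resection inhibitor genes, 8 fell and 4 rose with the UHRF1 siRNA, 4 fell and 3 rose with the SMYD3 siRNA and 1 fell and 2 rose with the ASO (16 tested in each), while 4 fell and 10 rose in the knockout. POLQ, the polymerase of the alternative end joining pathway, fell most in the list with both siRNAs, from 75.7 ± 2.82 to 9.52 ± 0.33 CPM with that against UHRF1 and from 11.7 ± 2.47 to 4.57 ± 0.59 CPM with that against SMYD3.

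Lists of cell-cycle genes are given beside the members. They mostly fell with both siRNAs, but with the ASO the mitosis list fell in part while more members rose than fell. Of 28 S-phase and E2F target genes, 28 fell with the UHRF1 siRNA (median -2.55), 19 fell and 2 rose with the SMYD3 siRNA (median -0.55), 27 rose in the knockout (median 0.89) and 12 rose with the ASO (median 0.19). Their summed level was 2918 to 3054 CPM in the controls of the UHRF1 siRNA and 470 to 491 with it, and 665 to 824 CPM in the controls of the SMYD3 siRNA and 471 to 519 with it. These tables were made separately, so the levels of one are not compared with those of the other. Of 25 G2/M and mitosis genes, 25 fell with each siRNA (medians -2.96 and -1.20), 16 rose and 8 fell in the knockout, and 7 fell with the ASO. Of 17 p53 targets, 9 rose and 6 fell with the UHRF1 siRNA, 13 rose and 2 fell with the SMYD3 siRNA, 8 rose and 5 fell in the knockout, and 6 rose and 2 fell with the ASO. On the nuclear scale of the knockout the counts became 23 higher and 2 lower for the S-phase list, 11 and 12 for the mitosis list, 7 and 9 for the p53 targets, 6 and 7 for the further Fanconi genes, 1 and 10 for the resolvase list, 4 and 3 for the BRCA1-A list, 7 and 8 for strand exchange, 7 and 5 for fork protection and 10 and 7 for end joining, in each case higher and then lower. Over all 16978 genes tested on that scale, 4838 were higher and 9669 lower, so a fall was the more common call for genes of any kind. Whether the change in cell-cycle genes plays a part in that of the members was not tested.

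**Figure D5:**
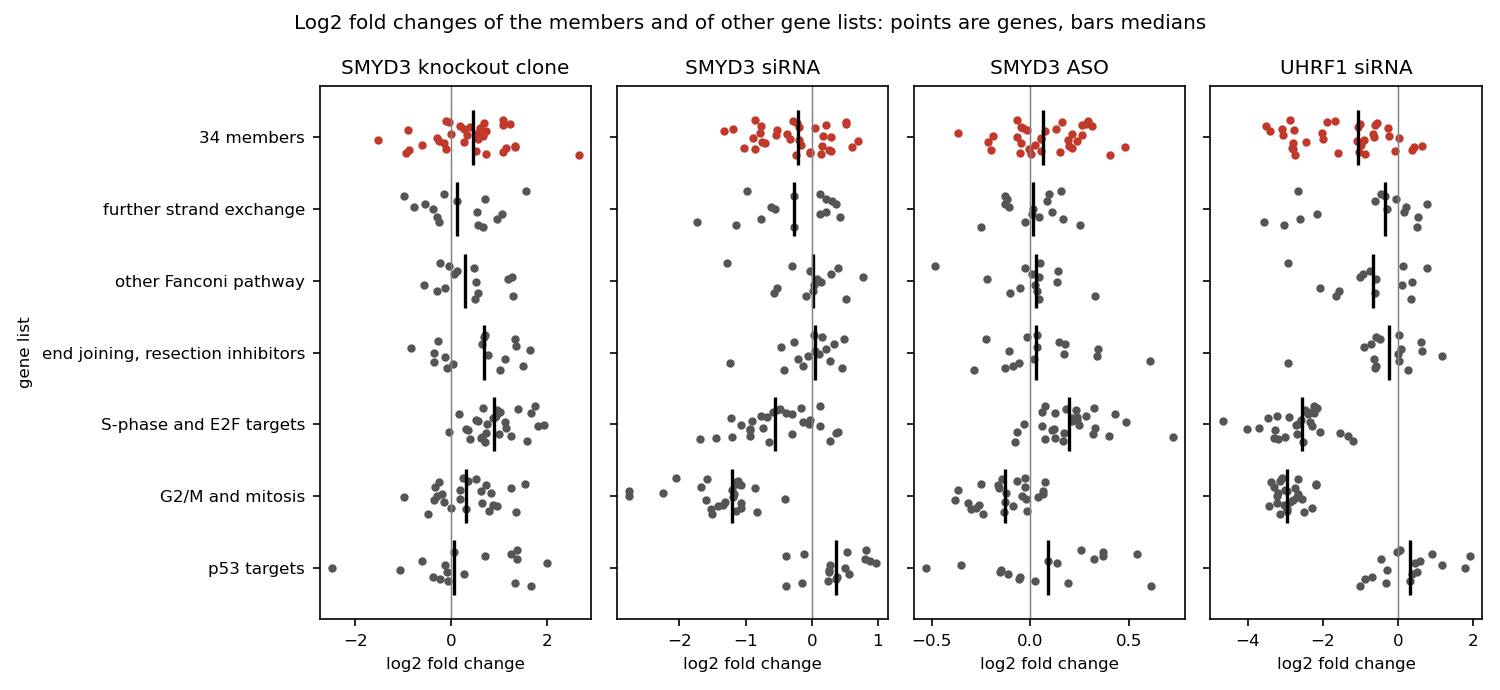
Log2 fold changes of the 34 members (red) and of the genes of 6 other lists (grey), with the median of each list as a bar, in each comparison; the axes differ between panels. The members' median of -1.07 with the UHRF1 siRNA lies between 0 and the medians of the S-phase list (-2.55) and the mitosis list (-2.96).

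Markers of other cell types were read in these libraries, and some of them moved. In the knockout table CD68 reached 306 CPM and COL1A1 50.1 CPM. Of 4 leukocyte markers tested there 2 rose and 2 fell (summed level 1471 to 1572 normalized counts in parental cells and 10327 to 10935 in the knockout), all 4 fibroblast markers tested fell (1965 to 2113 against 548 to 627), and of 2 endothelial markers 1 fell (147 to 183 against 36.7 to 63.2). Of 5 leukocyte markers 1 rose and 2 fell with the SMYD3 siRNA (15.6 to 17.8 CPM in siNC and 16.4 to 18.2 with the siRNA), 4 of 6 fibroblast markers rose (144 to 165 against 219 to 247 CPM), and of 4 endothelial markers 1 rose and 1 fell (13.7 to 16.2 against 7.21 to 7.67 CPM). With the ASO 1 of 5 leukocyte markers rose and 1 fell (8.43 to 10.1 against 10.1 to 11.1 CPM), 2 of 4 fibroblast markers fell (122 to 126 against 93.1 to 111 CPM) and the endothelial markers summed to 9.27 to 9.71 CPM with PBS and 9.29 to 9.32 CPM with the ASO. With the UHRF1 siRNA 3 of 4 leukocyte markers rose (4.62 to 5.62 against 13.9 to 14.3 CPM), of 4 fibroblast markers 1 rose and 1 fell (122 to 123 against 491 to 560 CPM, COL1A1 reaching 536 CPM), and of 4 endothelial markers 2 rose and 1 fell (8.68 to 9.38 against 22.1 to 23.4 CPM, CDH5 reaching 18.0 CPM). In the siRNA and ASO tables CD3E and NKG7 had at most 2 reads in any library and KDR at most 1. Their part in the results of the members was not tested. Gene position also differed in the knockout: the median log2 fold change was 0.38 for genes of chromosome 9, -0.49 for chromosome 14, -0.43 for chromosome 13, -0.36 for chromosome 15 and -0.33 for chromosome 18, whereas chromosome medians of the other comparisons lay between -0.12 and 0.07. The members on these chromosomes did not all share that sign. FANCC (0.66) and FANCG (0.57) on chromosome 9, XRCC3 (-0.91) and FANCM (-0.26) on 14 and FANCI (-0.16) on 15 did, while BRCA2 on 13 (1.22) and RBBP8 on 18 (0.67) had the opposite sign, and BLM on 15 (-0.10) did not pass the test. Copy number was not measured here, and its part was not tested.

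Per exon length, the control levels of the members spanned a wide range. In RPKM (CPM divided by the exon length in kilobases) the median member stood at 6.14 in parental cells, 2.52 in the siNC of the SMYD3 siRNA table, 6.05 with PBS and 6.10 in the siNC of the UHRF1 siRNA table. FANCL was highest in 3 of the 4 control groups (35.3 ± 1.6 RPKM in parental cells, SD), and in the siNC of the UHRF1 siRNA table FANCI was (22.8 ± 0.44 RPKM), with TOPBP1 next (21.5 ± 0.71 RPKM). FANCM (1.09 ± 0.13 RPKM), BRCA2, FANCB (1.78 ± 0.14) and ATM (2.07 ± 0.03) were the 4 lowest in parental cells. BRCA2 stood at 0.715 ± 0.13 RPKM in one siNC set and 4.51 ± 0.33 RPKM in the other, tables that were made separately.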

How the data were processed

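Poly(A) RNA libraries of HN-6 cells were analysed from 4 deposited tables. The counts of the SMYD3 siRNA, SMYD3 ASO and UHRF1 siRNA tables are whole numbers of reads per gene as deposited. The knockout table holds a signal, gene counts that the authors divided by a factor per library, as its values show; 100% of them were whole reads within 0.01 after division by the smallest step. Levels per length used the exon lengths deposited with the ASO and UHRF1 siRNA tables and, for the other tables, the union of annotated exons of GENCODE release 29. The hg38 build, bcl2fastq and Bowtie are named in the submitters' processing notes; their roles are not stated, nor are the counting tool, its annotation or its strand setting. Lines of the same symbol were summed, 19 repeated Y-copy lines of the knockout table were left out, and 23588 lines without a symbol in the SMYD3 siRNA table (0.849% to 0.917% of its reads) were named through their gene identifiers where the reference held them and kept under the identifier otherwise.

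Each count table was fitted alone with edgeR 4.0.16 (filterByExpr, TMM, robust quasi-likelihood F-test) and the knockout table with limma 3.58.1 (trend, robust) on log2(value + 1) for genes at 10 or more in at least 3 libraries. Differences between effects used edgeR over the 16 libraries of the count tables or, with the knockout, limma on log2(CPM + 1) for genes at 0.5 CPM or more in at least 2 libraries. Tests are two-sided, with Benjamini-Hochberg adjustment over all genes tested; under 0.05 is called. The SE of an edgeR value is its absolute log2 fold change divided by the square root of its F statistic. That of a limma value is the moderated standard error of the fit. The fits were tested on simulated data. Alternatives were DESeq2 1.42.0, upper quartile factors, other filters and pseudocounts, a replicate block, nuclear scaling and leaving out each library; the last was added for differences after seeing the data. R was 4.3.3 and Python 3.11.15. Depth was 24777802 to 62921144 reads a library, and no pair of replicates agreed within counting noise.

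The members, gene lists and the rule for named genes (6 fixed members, the 6 largest called changes in each comparison, members called in opposite directions or alike in all comparisons, and for other lists the largest called change in each direction) were chosen with earlier results of these data known. Promoters are from RefSeq (GRCh38.p14). The lists are those described in the results, with squamous, leukocyte, fibroblast and endothelial markers. Single values of some genes on these lists are not reported here.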

Additional observations from a re-analysis of the deposited data

Results flagged for a closer look

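These 17 differences are between members that were called higher under one way of depleting SMYD3 and lower under another, with the difference itself past the test. For the SMYD3 siRNA minus the ASO it was -0.52 for RBBP8, -1.08 for RAD51AP1, -0.58 for FANCA and 0.46 for ATM. For the knockout minus the SMYD3 siRNA it was 1.76 for BRCA1, 0.81 for RBBP8, 0.74 for RAD51AP1, 1.08 for XRCC2, 1.69 for RAD54L, 0.91 for RAD54B, 0.79 for FANCG, 0.84 for FANCD2 and 1.81 for EXO1, and -0.90 for FANCM and -1.16 for ATM. For the knockout minus the ASO it was 0.70 for FANCC and -1.80 for FANCL. Each value is a difference of log2 fold changes. Those with the knockout are on the log2(CPM + 1) scale and can differ from the fold changes given above. Table and treatment cannot be told apart in any of them. Several of the calls behind them did not hold. Fits that left out a library lost RBBP8, FANCG and ATM with the SMYD3 siRNA, and FANCM in the knockout. They also lost FANCA, FANCC, FANCL and ATM with the ASO. On the nuclear scale of the knockout RAD51AP1, XRCC2 and FANCD2 changed sign and RAD54B lost its call.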

How the results depend on the processing

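The 32 calls with the UHRF1 siRNA kept direction and threshold under all 11 alternatives. Leaving out mitochondrial genes is among these and only repeats the main fit, because that table holds no reads of such genes. In the knockout, members lower went from 8 to 13 on the nuclear scale and 13 with upper quartile factors, and leaving out a library gave 7 to 9. On the nuclear scale RAD51AP1 turned to -0.19, XRCC2 to -0.10, FANCB to -0.030 and FANCD2 to -0.093, and with upper quartile factors RAD51AP1 turned to -0.10, XRCC2 to -0.021 and FANCD2 to -0.0092. Leaving out a library gave 5 to 8 members higher with the SMYD3 siRNA, 0 to 2 lower with the ASO, 1 to 3 members below 0 for the SMYD3 siRNA minus the UHRF1 siRNA and 1 to 5 above 0 for the SMYD3 siRNA minus the ASO; the cause was not tested. With DESeq2 the ASO gave 5 higher and 0 lower members, and its calls over all genes went from 2069 higher and 1880 lower to 1381 and 1055. With a replicate block the ASO gave 14 higher and 4 lower members (3473 and 3292 over all genes); the block moved no other count of members by over 1.5 times. Same-numbered libraries deviated together only in part, so the numbers were not taken as pairs. Their correlations were 0.23, 0.22 and -0.01 with the SMYD3 siRNA, 0.10 with the ASO and from -0.09 to 0.05 in the other comparisons. Depth limits RAD50, FANCB and RAD54B most, and 2 libraries a group limit the ASO.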
